A study of Mus musculus with 8 samples.

Results

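The genes described here carry dietary fat into the absorptive cells of the intestine and rebuild it as triglyceride: Cd36, Slc27a4, Fabp1, Fabp2, Acsl5, Mogat2, Dgat1, Dgat2, Plin2 and Plin3. They were chosen by name for their known place on this path, and they are 10 of the 37620 genes in each library's table. All 10 were found in every library and all 10 passed the filter on low counts. RNA sequencing was done on mouse small intestinal epithelium, sorted by flow cytometry for CD24, a surface glycoprotein of crypt cells, after cells carrying the leukocyte antigen CD45 or bound by the lectin Ulex europaeus agglutinin I had been removed. One gate kept cells of intermediate CD24 (CD24Mid, which the submitters also name CD24low) and the other kept cells lacking CD24 (CD24Neg). Each group held 4 libraries, which the submitters call biological replicates, with titles numbered 1, 3, 5 and 7 in CD24Mid and 2, 4, 6 and 8 in CD24Neg. No genetic change or treatment is listed for either group, and the labels say nothing of strain, age, diet or the stretch of intestine sampled.

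Fat in the gut lumen is cut by lipases to fatty acids and monoacylglycerol, which enter the enterocyte at its brush border. Inside the cell, small binding proteins carry the fatty acids, acyl-CoA synthetases activate them, and acyltransferases of the endoplasmic reticulum join them to monoacylglycerol and then to diacylglycerol. The triglyceride leaves in chylomicrons or waits in cytosolic lipid droplets, which are coated by perilipins. Absorption is the work of the enterocytes of the villus, which arise from dividing cells of the crypt.

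The promoters of 7 members were found in the RefSeq table of build GRCm38.p6, which matched all but Mogat2, Dgat1 and Dgat2, and 4 of them are shown, for the pair of genes with the highest levels (Fabp1 and Fabp2), the gene with the largest difference between groups (Cd36) and the gene with the smallest (Plin2). Each runs 5′ to 3′ on the gene's own strand, from 250 bases before the annotated start to 50 bases after it, and capitals mark matches, on either strand, to the motifs named after the sequences. The stretches are chr6:71199629-71199928 on the plus strand for Fabp1, chr3:122894822-122895121 on the plus strand for Fabp2, chr5:17835847-17836146 on the minus strand for Cd36 and chr4:86670010-86670309 on the minus strand for Plin2.
Fabp1: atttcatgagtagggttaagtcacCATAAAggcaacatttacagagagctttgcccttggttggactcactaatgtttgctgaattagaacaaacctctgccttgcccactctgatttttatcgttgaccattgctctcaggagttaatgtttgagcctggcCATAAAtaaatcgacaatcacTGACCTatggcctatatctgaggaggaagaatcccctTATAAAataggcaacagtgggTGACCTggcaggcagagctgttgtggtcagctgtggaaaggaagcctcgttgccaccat
Fabp2: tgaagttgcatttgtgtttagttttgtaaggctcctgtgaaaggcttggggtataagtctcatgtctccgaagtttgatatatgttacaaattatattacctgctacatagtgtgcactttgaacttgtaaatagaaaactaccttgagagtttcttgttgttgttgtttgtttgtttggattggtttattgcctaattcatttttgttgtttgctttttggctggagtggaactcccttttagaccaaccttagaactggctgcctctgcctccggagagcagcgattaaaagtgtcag
Cd36: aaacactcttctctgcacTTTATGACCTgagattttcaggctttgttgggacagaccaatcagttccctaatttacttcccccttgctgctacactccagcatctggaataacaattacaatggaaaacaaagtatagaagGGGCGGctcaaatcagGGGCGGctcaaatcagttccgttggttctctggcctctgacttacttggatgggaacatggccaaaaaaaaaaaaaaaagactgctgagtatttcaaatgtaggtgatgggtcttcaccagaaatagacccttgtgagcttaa
Plin2: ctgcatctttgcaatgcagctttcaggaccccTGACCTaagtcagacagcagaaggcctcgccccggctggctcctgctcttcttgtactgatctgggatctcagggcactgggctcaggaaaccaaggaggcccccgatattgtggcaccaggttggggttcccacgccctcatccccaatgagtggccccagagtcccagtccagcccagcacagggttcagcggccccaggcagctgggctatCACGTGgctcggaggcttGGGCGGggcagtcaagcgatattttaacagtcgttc

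Both strands were searched, after the sequences had been seen, for 7 motifs. They were the TATA box spelled as TATAAA, the core bound by nuclear receptors as AGGTCA, the site of GATA factors as AGATAA, the site of CDX factors as TTTATG, the E-box as CACGTG, the GC box as GGGCGG and the HNF4 site as CAAAGTCCA. Positions are of the motif's first base in the printed direction, counted from the annotated start, with negative values before it. The Fabp1 stretch held TATAAA at -30, AGGTCA on the opposite strand at -67 and -9, and TTTATG on the opposite strand at -226 and -88. The Cd36 stretch held TTTATG at -232, overlapped by AGGTCA on the opposite strand at -228, and GGGCGG at -109 and -93. The table lists 1 start for Cd36, and counts per gene do not show which start was used. In the Plin2 stretch, AGGTCA lay on the opposite strand at -218, CACGTG, which reads alike on both strands, at -4, and GGGCGG at 15. The Fabp2 stretch held none of these letters. Of the promoters shown, Plin2 had the most G and C, 60.7% against 45% in Fabp1, 43% in Cd36 and 38.7% in Fabp2. Those not shown had 59.3% in Plin3, 58.7% in Slc27a4 and 53% in Acsl5, and the median of all promoters was 52.7%. Of the 7 promoters, 3 held AGGTCA, 3 TTTATG, 4 GGGCGG, 1 TATAAA, 1 CACGTG and none AGATAA or CAAAGTCCA. Over all 32817 promoters of the table the shares were 16.3% for AGGTCA, 11.9% for TTTATG, 35.6% for GGGCGG, 13.6% for TATAAA, 7.15% for CACGTG, 11.2% for AGATAA and 0.475% for CAAAGTCCA. These matches are descriptions of the letters, and no binding was measured.

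Reads that hit 1 gene alone numbered 11340782 to 18928233 per library. Mitochondrially encoded genes took 8.03% to 9.17% of them in CD24Mid and 27.7% to 37.0% in CD24Neg. The TMM factors, which correct for unequal composition from any genes, were 1.34 to 1.42 in CD24Mid and 0.697 to 0.757 in CD24Neg. Levels are given as CPM, the read count relative to the library size after this correction. A gene with no read had a limit of 0.121 to 0.145 CPM in CD24Mid and 0.218 to 0.380 CPM in CD24Neg (3 reads, counting error only). All adjusted p-values are from edgeR's quasi-likelihood test with Benjamini-Hochberg adjustment over all genes tested, unless another test is named. In it 69.8% of 12840 genes differed between the groups at the 0.05 threshold, 35.5% higher in CD24Mid and 34.3% higher in CD24Neg. Nothing in the labels says that libraries came from separate animals beyond the words biological replicates, so p-values measure the spread between these libraries.

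With TMM scaling all 10 members were higher in CD24Neg, 1.82-fold to 33.6-fold, where 34.3% of all genes tested were higher, and on library totals alone 9 were, with Plin2 changing sign. Their median log2 fold change, CD24Mid over CD24Neg, was -3.43, against 0.015 over all genes tested. CD24Mid and CD24Neg libraries did not overlap for any of the 10, as for 64.4% of all genes tested. Together the 10 members took 0.181%, 0.126%, 0.143% and 0.12% of unique reads in CD24Mid and 0.706%, 0.969%, 1.01% and 0.741% in CD24Neg. Most of the CD24Neg share belonged to the binding proteins, since Fabp1 and Fabp2 alone took 0.376% to 0.567% there. Within each group 1 library tended to be highest: CD24Mid replicate 1 for 10 of the 10 members and CD24Neg replicate 6 for 8 of them. The same libraries had the highest sums over 8 markers of absorptive enterocytes in their groups, 2315 CPM of a range from 1342 in CD24Mid and 40358 CPM of a range from 25028 in CD24Neg. Without either of these libraries all 10 members were still called higher in CD24Neg. In bulk RNA, fewer absorptive cells and less RNA per cell cannot be told apart.

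**Figure D1:**
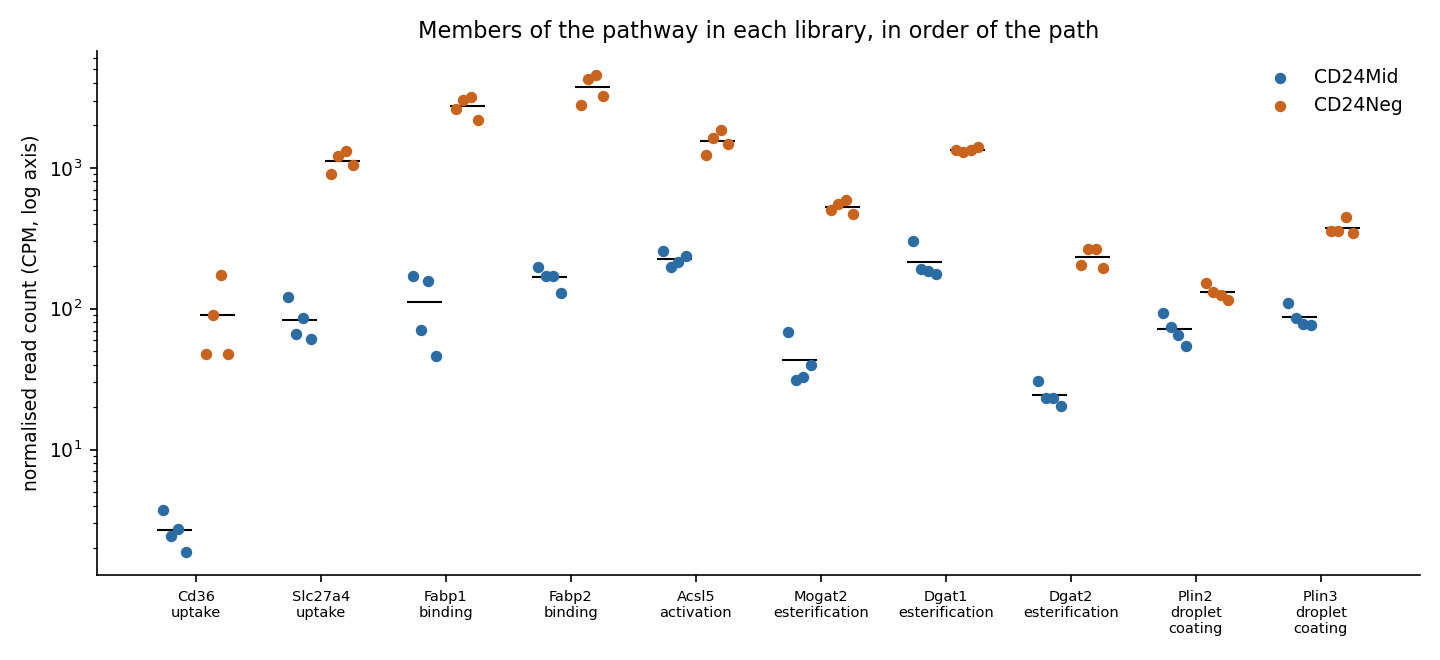
Normalised read count (CPM, log axis) of each member in each of the 8 libraries, ordered along the path from uptake to droplet coating; points are libraries in the order of their numbers and lines are group means. The 4 CD24Neg points lie above the 4 CD24Mid points for each of the 10 genes, with the lowest means for Cd36 in both groups and the smallest gap at Plin2, whose direction changed on library totals alone.

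The uptake genes showed the widest gap for Cd36 and a high CD24Neg level for Slc27a4. Cd36 (ENSMUSG00000002944) encodes a membrane receptor that binds long-chain fatty acids and lipoproteins. It stood at 3.73, 2.42, 2.72 and 1.89 CPM in the CD24Mid libraries and at 47.6, 90.5, 173 and 47.5 CPM in the CD24Neg libraries. Every CD24Mid value lay far below the lowest CD24Neg value, and the CD24Neg libraries spread among themselves, with replicate 6 far above replicates 2 and 8. The CD24Mid mean was 2.69 ± 0.775 CPM (SD, n = 4, as for all means), and the CD24Neg mean was 89.6 ± 59.1 CPM, a 33.6-fold difference (log2 fold change of -5.07, SE 0.46, adjusted p = 3.61e-06). Without CD24Neg replicate 6 the log2 fold change was -4.48. The CD24Mid values rested on 47 to 77 reads per library, and 241 reads in all.

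Slc27a4 (ENSMUSG00000059316) encodes the fatty acid transport protein FATP4, an acyl-CoA synthetase of the enterocyte that promotes fatty acid uptake. The CD24Mid libraries held 120, 66.7, 85.4 and 60.7 CPM, and the CD24Neg libraries 901, 1218, 1326 and 1051 CPM. The lowest CD24Neg library was thus well above the highest CD24Mid library. From 83.2 ± 26.8 CPM in CD24Mid, the level reached 1124 ± 187 CPM in CD24Neg, 13.5-fold higher (log2 fold change of -3.76, SE 0.24, adjusted p = 3.44e-07).

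Both binding proteins were among the most abundant transcripts of CD24Neg cells. Fabp1 (ENSMUSG00000054422), the liver-type fatty acid binding protein, which also binds monoacylglycerol and other lipids, stood at 172, 71.0, 156 and 46.1 CPM in CD24Mid and at 2602, 3011, 3203 and 2172 CPM in CD24Neg. In CD24Mid, replicates 1 and 5 were high and replicates 3 and 7 low, a wider relative spread than for any other member. The means were 111 ± 62.0 and 2747 ± 458 CPM, a 24.7-fold difference (log2 fold change of -4.63, SE 0.42, adjusted p = 3.07e-06). Fabp2 (ENSMUSG00000023057), the intestinal type, which is made almost solely by enterocytes, stood at 197, 172, 171 and 129 CPM in CD24Mid and at 2793, 4266, 4587 and 3245 CPM in CD24Neg. Its CD24Mid libraries lay close together, without the split seen for Fabp1. Fabp2 was 22.3-fold higher in CD24Neg. Its means were 167 ± 27.9 CPM in CD24Mid and, in CD24Neg, 3723 ± 843 CPM (log2 fold change of -4.48, SE 0.23, adjusted p = 1.36e-07).

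Activation was represented by Acsl5 (ENSMUSG00000024981), a long-chain acyl-CoA synthetase that is plentiful in the small intestine. CD24Mid libraries held 256, 199, 215 and 237 CPM and CD24Neg libraries 1235, 1640, 1842 and 1486 CPM. The libraries of each group lay close together and the groups were well apart. From a CD24Mid mean of 227 ± 25.2 CPM the level was 6.84-fold higher in CD24Neg, at 1551 ± 256 CPM (log2 fold change of -2.77, SE 0.16, adjusted p = 2.27e-07). The deposited effective length of Acsl5, a length in bases given for each gene and library beside its expression estimate, was 2140 to 2355 bases in CD24Mid and 1981 to 2048 bases in CD24Neg. Taken relative to other genes of the same library, it was 0.16 longer on the log2 scale in CD24Mid, without overlap between groups (exact two-sided permutation p = 0.0286, adjusted p = 0.143 over the 10 members). Relative effective lengths did not overlap for 9.39% of the 12604 genes compared. Cd36 also showed no overlap, with a difference of 0.0010 on the log2 scale, and Dgat1, at 968 to 1099 against 912 to 1003 bases, overlapped. This comparison of lengths was added after the data were seen.

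The acyltransferases of triglyceride synthesis were 6.27-fold to 12.3-fold higher in CD24Neg. Mogat2 (ENSMUSG00000052396) encodes the enterocyte enzyme that acylates monoacylglycerol to diacylglycerol. It stood at 68.2, 31.3, 32.8 and 40.0 CPM in CD24Mid and at 504, 550, 591 and 472 CPM in CD24Neg. CD24Neg libraries varied little, and CD24Mid replicate 1 was the highest of its group. The means of 43.1 ± 17.2 and 529 ± 52.1 CPM differed 12.3-fold (log2 fold change of -3.62, SE 0.25, adjusted p = 5.04e-07).

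Dgat1 (ENSMUSG00000022555) and Dgat2 (ENSMUSG00000030747) encode unrelated enzymes that acylate diacylglycerol to triglyceride. Dgat1 stood at 305, 191, 184 and 178 CPM in CD24Mid and at 1346, 1287, 1342 and 1400 CPM in CD24Neg. Its CD24Neg libraries were the most alike of any member, and CD24Mid replicate 1 was set off from the other CD24Mid libraries. Dgat1 was 6.27-fold higher in CD24Neg. Its means were 214 ± 60.4 CPM in CD24Mid and, in CD24Neg, 1344 ± 46.5 CPM (log2 fold change of -2.65, SE 0.19, adjusted p = 6.28e-07). Dgat2 stood at 30.6, 23.3, 23.3 and 20.6 CPM in CD24Mid and at 205, 265, 266 and 194 CPM in CD24Neg. Per kilobase it was the scarcer of the pair in every library. Its means of 24.4 ± 4.30 and 232 ± 38.1 CPM differed 9.51-fold (log2 fold change of -3.25, SE 0.17, adjusted p = 1.37e-07).

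The droplet coat proteins had the smallest differences of the 10. Plin3 (ENSMUSG00000024197), a perilipin that moves from the cytosol to nascent droplets, stood at 111, 86.5, 78.2 and 76.2 CPM in CD24Mid and at 355, 358, 448 and 342 CPM in CD24Neg. It was 4.28-fold higher in CD24Neg. Its means were 87.9 ± 15.8 CPM in CD24Mid and, in CD24Neg, 376 ± 48.8 CPM (log2 fold change of -2.10, SE 0.15, adjusted p = 6.45e-07). Plin2 (ENSMUSG00000028494), a perilipin that stays on droplets and is made in many cell types, stood at 93.9, 74.3, 64.5 and 54.8 CPM in CD24Mid and at 152, 131, 125 and 115 CPM in CD24Neg. The groups did not overlap, but the gap between the lowest CD24Neg and the highest CD24Mid library was small. The means of 71.9 ± 16.7 and 131 ± 15.7 CPM differed 1.82-fold (log2 fold change of -0.86, SE 0.16, adjusted p = 0.000706).

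The direction for Plin2 depended on scaling. On library totals alone its log2 fold change was 0.076 (adjusted p = 0.648), and on the deposited estimates it was 0.091 (limma, adjusted p = 0.545). Library totals moved the median of all genes tested from 0.015 to 0.956, and upper-quartile scaling moved it to 0.237. Relative to that median Plin2 was at -0.88 under TMM, upper-quartile scaling and library totals alike. A change of scaling moves all genes by nearly the same amount, so this agreement was fixed in advance. It cannot decide the direction for Plin2. The other 9 members were called higher in CD24Neg under all 3 scalings and in each of the 16 alternatives run. Their log2 fold changes on library totals were smaller in size than under TMM by close to the shift in that median, as a common shift requires.

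**Figure D2:**
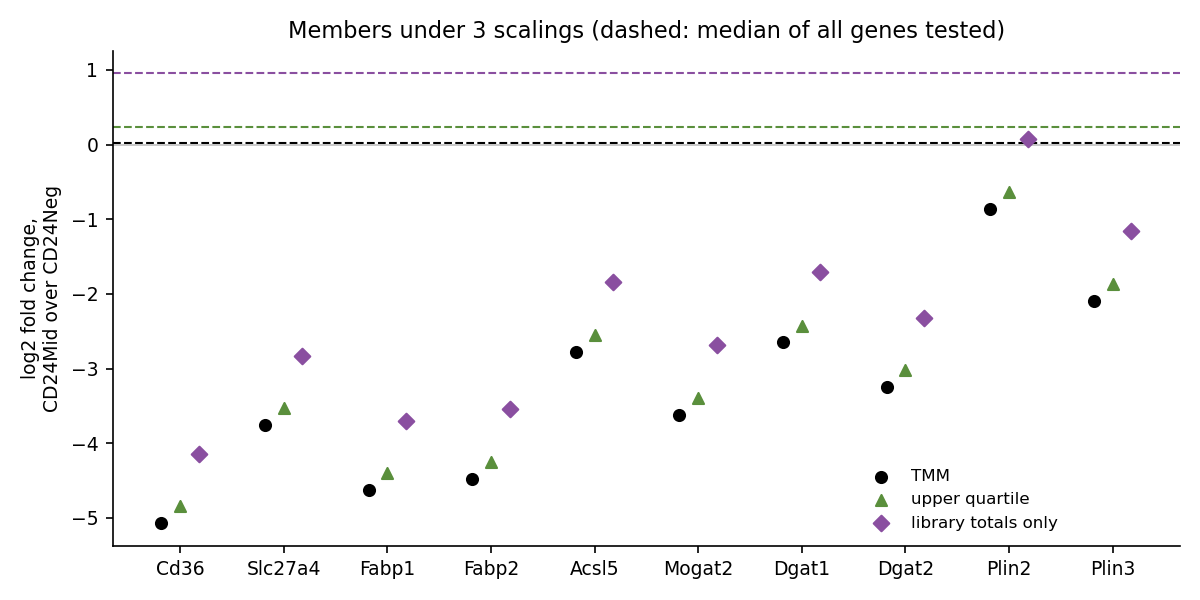
Log2 fold change of each member, CD24Mid over CD24Neg, under TMM (circles), upper-quartile scaling (triangles) and library totals only (diamonds); dashed lines are the median of all genes tested under each, at 0.015, 0.237 and 0.956. Plin2 crosses 0 under library totals, while the other 9 members stay below -1 under each of the 3 scalings.

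Ranked by level per kilobase of effective length, the members formed a like order in both groups at the top and differed in the middle. In CD24Neg, CPM per kilobase were 7980 ± 1350 for Fabp1 and 5319 ± 1207 for Fabp2, then 1410 ± 111 for Dgat1 and 768 ± 120 for Acsl5 (SD, n = 4). Below these came Mogat2 at 378 ± 38.3, Slc27a4 at 336 ± 56.5, Plin3 at 217 ± 29.9, Dgat2 at 128 ± 21.0, Plin2 at 91.8 ± 12.5 and Cd36 at 32.1 ± 21.4. Neighbours overlapped in their library values for Fabp1 and Fabp2, for Mogat2 and Slc27a4 and for Dgat2 and Plin2. In CD24Mid the levels per kilobase were 326 ± 183 for Fabp1, 240 ± 40.9 for Fabp2, 205 ± 61.0 for Dgat1 and 102 ± 12.7 for Acsl5. Plin2 at 52.4 ± 10.8 and Plin3 at 51.1 ± 9.39 came next there, ahead of Mogat2 at 31.0 ± 12.4, Slc27a4 at 24.9 ± 8.09, Dgat2 at 13.6 ± 2.45 and Cd36 at 0.966 ± 0.282. Neighbours overlapped for Fabp1 with Fabp2, Fabp2 with Dgat1, Plin2 with Plin3, Plin3 with Mogat2 and Mogat2 with Slc27a4. Among 12840 genes ranked by this level, Fabp1 was number 17 in CD24Neg and number 198 in CD24Mid, and Fabp2 number 23 and number 268. Dgat1 ranked 61 in CD24Neg and 321 in CD24Mid, whereas Plin2 ranked 1219 and 1601, and Cd36 3168 and 11270.

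Ratios of members within a library do not depend on scaling between libraries, and 6 pairs were compared. With 4 libraries a group the exact two-sided permutation test cannot go below 0.0286, and after Benjamini-Hochberg adjustment over the 6 pairs none was under 0.05. Plin2 over Plin3 per kilobase had a log2 ratio of 0.04, 0.12, 0.06 and -0.09 in CD24Mid and of -0.91, -1.19, -1.58 and -1.29 in CD24Neg. The coat genes were thus at near equal levels in CD24Mid, and Plin3 led in each CD24Neg library. The mean ratios of 0.03 ± 0.09 and -1.24 ± 0.27 differed by 1.27 (exact permutation p = 0.0286, adjusted p = 0.0571).

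Cd36 over Slc27a4 had a log2 ratio of -4.67 ± 0.11 in CD24Mid and -3.59 ± 0.67 in CD24Neg, where replicate 6 reached -2.69 (exact permutation p = 0.0286, adjusted p = 0.0571). Mogat2 over Dgat1 stood at -2.76 ± 0.29 and -1.90 ± 0.24, without overlap (exact permutation p = 0.0286, adjusted p = 0.0571). The monoacylglycerol enzyme was thus a larger part of the pair in each CD24Neg library than in any CD24Mid library. Mogat2 over Dgat2 stood at 1.13 ± 0.35 and 1.57 ± 0.11 (exact permutation p = 0.0571, adjusted p = 0.0857), and Dgat2 over Dgat1 at -3.89 ± 0.17 and -3.47 ± 0.35 (exact permutation p = 0.0857, adjusted p = 0.103). For Fabp1 over Fabp2 the ratio was 0.83, -0.25, 0.90 and -0.46 in CD24Mid and 0.92, 0.52, 0.51 and 0.44 in CD24Neg, with overlapping groups (exact permutation p = 0.400, adjusted p = 0.400). In CD24Mid the binding protein ahead therefore differed between libraries, with Fabp1 ahead in replicates 1 and 5 and Fabp2 in replicates 3 and 7.

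**Figure D3:**
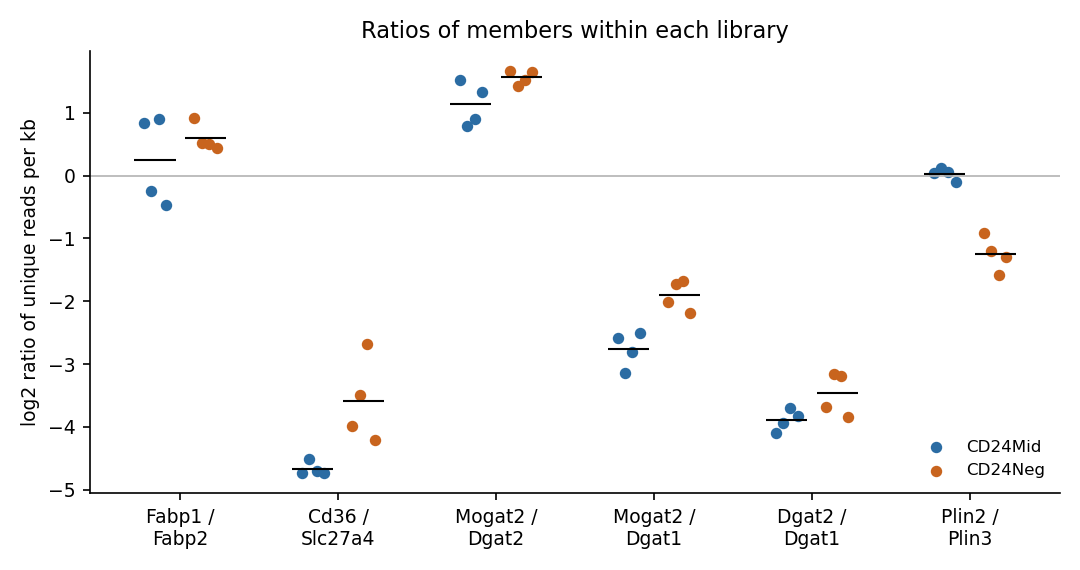
Log2 ratio of unique reads per kilobase for 6 pairs of members within each library; points are libraries, lines are group means and the grey line marks equal levels. Plin2 and Plin3 are near 0 in CD24Mid and below it in CD24Neg, and Fabp1 over Fabp2 splits the CD24Mid libraries above and below 0.

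The other genes of the path were read from 6 lists of 56 genes. Of these, 42 were tested, and 10 were higher in CD24Mid, 26 higher in CD24Neg and 6 not called, with a median log2 fold change of -0.91. Over all genes tested the shares were 35.5% toward CD24Mid and 34.3% toward CD24Neg. On library totals alone 17 of the pathway genes were called toward CD24Mid and 13 toward CD24Neg. The 14 genes not tested had at most 46 reads in all 8 libraries together, and Fabp4, Fabp7, Acsbg2 and Plin1 had none.

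**Figure D4:**
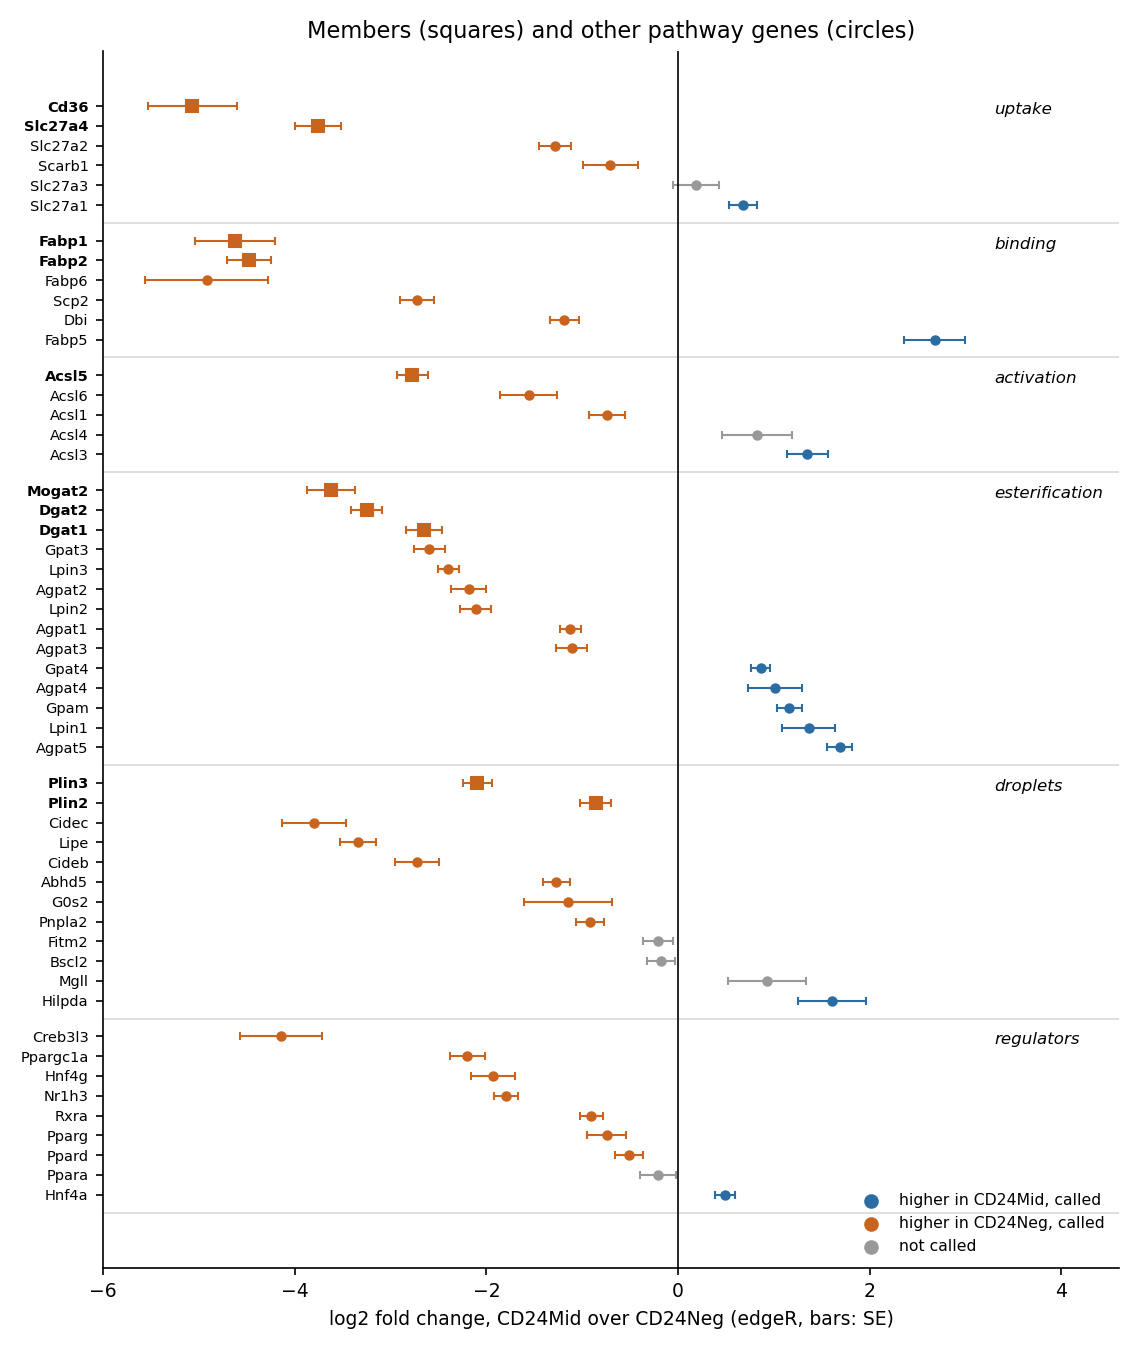
Log2 fold change, CD24Mid over CD24Neg, of the 10 members (squares, bold names) and of the 42 other genes tested (circles) with standard errors from edgeR, grouped by step; colour gives the group in which a called gene was higher. All 10 squares lie left of 0 under TMM (Plin2 crosses 0 on library totals alone), while each list of other genes holds genes on both sides.

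Among the uptake relatives, 2 of 4 tested genes were higher in CD24Neg, 1 in CD24Mid, and 1 was not called. Slc27a2, the very long-chain transport protein FATP2, was 2.43-fold higher in CD24Neg (205 ± 50.9 CPM there and 84.6 ± 7.34 CPM in the other group, adjusted p = 4.51e-05). Slc27a1, the FATP1 gene of muscle and fat, was 1.60-fold higher in CD24Mid (20.6 ± 3.73 CPM there and 12.9 ± 0.480 CPM in the other group, adjusted p = 0.00183). Scarb1, a lipoprotein and sterol receptor, had a mean of 6.20 ± 1.01 CPM in CD24Mid against 10.1 ± 4.32 CPM in CD24Neg, with overlapping libraries (adjusted p = 0.0459), and 13 of 16 alternatives lost that call, 2 of them with the opposite sign. The call for Slc27a2 was lost on library totals and on the deposited estimates.

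Of the binding relatives, 3 of 4 tested were higher in CD24Neg and 1 in CD24Mid. Fabp6, the bile acid binding protein of the ileum, was 30.2-fold higher in CD24Neg (adjusted p = 5.87e-05), at 1101, 748, 283 and 1481 CPM against 57.5, 23.4, 9.41 and 29.3 CPM in CD24Mid. CD24Neg replicate 6, the highest for Cd36, Slc27a4, Fabp1 and Fabp2, was the lowest of its group for Fabp6. It was not the lowest for Slc10a2, the other listed marker of the lower small intestine. There replicate 6 lay above replicates 2 and 4 and below replicate 8. Gata4, Onecut2 and Pdx1, markers of the upper small intestine, summed to 270 to 320 CPM in CD24Mid and 235 to 312 CPM in CD24Neg. Whether the stretch of intestine sampled plays a part in the members' values was not tested. Scp2, a sterol carrier protein, was 6.62-fold and Dbi, the acyl-CoA binding protein, 2.28-fold higher in CD24Neg. The call for Dbi was lost on library totals (log2 fold change of -0.251, adjusted p = 0.108) and on the deposited estimates (-0.281, limma, adjusted p = 0.0907). Fabp5, the epidermal type, was 6.40-fold higher in CD24Mid, at 4.897, 11.4, 6.02 and 5.71 CPM against 1.14, 1.04, 1.16 and 0.994 CPM (adjusted p = 2.25e-05).

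The activation relatives were split, with 2 of 4 tested higher in CD24Neg, 1 in CD24Mid and 1 not called. Acsl1, the main synthetase of fat and heart, was 1.67-fold higher in CD24Neg (126 ± 38.1 CPM there and 75.6 ± 8.70 CPM in the other group, adjusted p = 0.00485) and changed sign on library totals and on the deposited estimates. Acsl6 was low in both groups and 2.95-fold higher in CD24Neg, a call that was lost on library totals (log2 fold change of -0.623, adjusted p = 0.0854). Acsl3, a synthetase found on nascent droplets, was 2.55-fold higher in CD24Mid (42.5 ± 6.88 CPM there and 16.7 ± 5.26 CPM in the other group, adjusted p = 0.000176).

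Esterification genes of the glycerol-3-phosphate pathway, the general route to diacylglycerol that does not use monoacylglycerol, divided by isoform. Of 11 tested, 6 were higher in CD24Neg and 5 in CD24Mid. Higher in CD24Neg were the lysophosphatidic acid acyltransferases Agpat2 (4.55-fold), Agpat1 (2.18-fold) and Agpat3 (2.16-fold). Agpat5 (3.22-fold), the phosphatidic acid phosphatase Lpin1 (2.57-fold) and the mitochondrial acyltransferase Gpam (2.24-fold) were higher in CD24Mid. The remaining 5, named after their values were seen, were Gpat3 (6.05-fold), Lpin3 (5.27-fold) and Lpin2 (4.33-fold), higher in CD24Neg, and Agpat4 (2.02-fold) and Gpat4 (1.82-fold), higher in CD24Mid. Each of these 11 had an adjusted p of 0.00811 or less, and Agpat1 and Agpat3 lost the call on library totals and on the deposited estimates.

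Ratios of isoforms within a library put a gene called higher in CD24Neg over a relative that was not. Their direction follows from that choice, made after the values were seen, and only their size is described. Gpat3 over Gpam per kilobase was 1.24 to 1.79 in CD24Mid and 16.6 to 29.3 in CD24Neg. Lpin3 over Lpin1 was 2.001 to 3.58 and 31.7 to 71.2, and Agpat2 over Agpat5 was 2.32 to 4.23 and 31.1 to 62.6. For the members, Acsl5 over Acsl3 was 4.51 to 7.81 in CD24Mid and 83.5 to 153 in CD24Neg, and Fabp1 over Fabp5 was 10.4 to 55.8 and 4519 to 6379. Acsl5 and Fabp1 thus led these relatives in every library. That the margin was wider in CD24Neg was set by the choice of relatives.

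**Figure D5:**
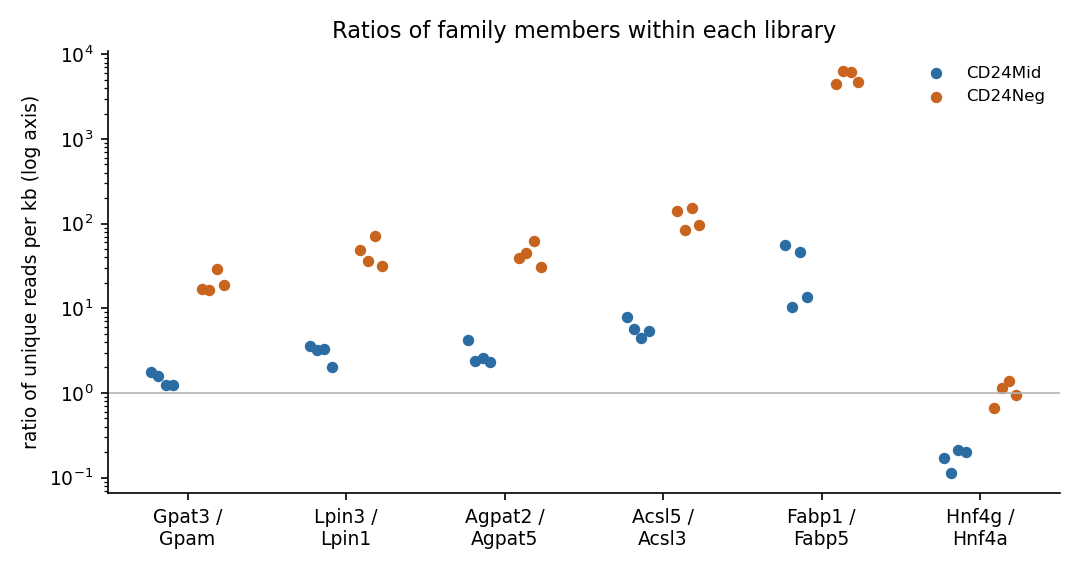
Ratio of unique reads per kilobase of 2 genes of 1 family within each library (log axis); points are libraries and the grey line marks equal levels. CD24Neg libraries lie above CD24Mid libraries for each of the 6 ratios, a direction set by the choice of genes, and Hnf4g over Hnf4a lies below 1 in the 4 CD24Mid libraries and in CD24Neg replicates 2 and 8.

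Of 10 droplet and lipolysis genes tested, 6 were higher in CD24Neg, 1 higher in CD24Mid and 3 not called. Lipe, the hormone-sensitive lipase, was 10.1-fold higher in CD24Neg (156 ± 10.6 CPM there and 15.4 ± 4.48 CPM in the other group, adjusted p = 1.70e-07). Cideb, which acts in droplet fusion and lipoprotein lipidation, was 6.61-fold higher there (169 ± 15.2 CPM there and 25.5 ± 10.04 CPM in the other group, adjusted p = 1.81e-06). Cidec, a droplet fusion protein named after its values were seen, was 14.0-fold higher there (adjusted p = 2.43e-06). Pnpla2, the adipose triglyceride lipase, was 1.89-fold higher in CD24Neg (adjusted p = 0.000198) and changed sign on library totals and on the deposited estimates. Hilpda, an inhibitor of that lipase, was 3.05-fold higher in CD24Mid (3.64 ± 0.590 CPM there and 1.20 ± 0.672 CPM in the other group, adjusted p = 0.00199).

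Among 9 regulators of lipid handling, 7 were higher in CD24Neg, 1 higher in CD24Mid and 1 not called. Creb3l3, a membrane-bound factor of liver and gut, was 17.7-fold higher in CD24Neg, at 531, 694, 667 and 543 CPM against 59.8, 18.2, 45.5 and 14.4 CPM (adjusted p = 8.35e-06). Hnf4g was 3.82-fold higher in CD24Neg (595 ± 159 CPM there and 156 ± 37.1 CPM in the other group, adjusted p = 2.37e-05), while its relative Hnf4a was 1.40-fold higher in CD24Mid (917 ± 23.7 CPM there and 653 ± 22.9 CPM in the other group, adjusted p = 0.00204). Hnf4g over Hnf4a per kilobase, again chosen after the values were seen, was 0.113 to 0.212 in CD24Mid and 0.664 to 1.37 in CD24Neg. The fatty acid receptors, named after their values were seen, had small differences whose sign depended on scaling. Under TMM the log2 fold change was -0.51 for Ppard (adjusted p = 0.00924), -0.75 for Pparg (adjusted p = 0.00725) and -0.21 for Ppara (adjusted p = 0.329). On library totals Ppard (0.430, adjusted p = 0.00995) and Ppara (0.730, adjusted p = 0.00598) were called in the opposite direction, and Pparg stood at 0.187 (adjusted p = 0.437). On the deposited estimates Ppard (0.474) and Ppara (0.534) were again called higher in CD24Mid (limma, adjusted p = 0.00566 and 0.0439).

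The genes nearest in pattern to 5 members were found by the root mean square difference of centred log2 CPM over the 8 libraries, where 0 would mean parallel values. Nearest to Fabp1 were Creb3l3 (0.260), Proz (0.362) and Fgf15 (0.393). Creb3l3 shared with Fabp1 the higher values of CD24Mid replicates 1 and 5, a likeness that selection by this distance favours. Among the nearest to Cd36 were Vnn1 (0.210) and Sectm1b (0.304), and nearest to Mogat2 were Abcg5 (0.116), Erich4 (0.138) and Cyp4f14 (0.144). Acsl5 had closer neighbours in Pdzd2 (0.0641), Sccpdh (0.0913) and Slc25a22 (0.0965), as did Plin2 in Tspan15 (0.0563), Pccb (0.0670) and Cisd3 (0.0677). The distances grow with the spread between replicates, which was widest for Cd36 and Fabp1.

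Markers of several cell types also differed between the groups, some in the members' direction and some against it. All 8 absorptive enterocyte markers were higher in CD24Neg, and all 8 crypt stem and dividing cell markers were higher in CD24Mid, with summed levels of 3801 to 5281 CPM there and 149 to 493 CPM in CD24Neg. Goblet cell markers, 5 of 7 higher in CD24Neg, summed to 3415 to 5303 and 12226 to 34480 CPM, and T and intraepithelial lymphocyte markers, 7 of 7 higher in CD24Neg, to 6.46 to 18.04 and 29.9 to 521 CPM. Of the lymphocyte markers, Cd8a, Gzma and Gzmb did not overlap between groups, while Cd3e, Cd3g, Nkg7 and Ptprc did. The lymphocyte sum was 18.04, 6.46, 7.99 and 17.2 CPM in CD24Mid replicates 1, 3, 5 and 7 and 521, 29.9, 84.0 and 392 CPM in CD24Neg replicates 2, 4, 6 and 8, while Cd36 was highest of its group in CD24Neg replicates 4 and 6. Cd36 is also made by macrophages, capillary endothelium and fat cells. Of 6 macrophage markers tested, 3 were higher in CD24Mid, 1 was higher in CD24Neg and 2 were not called, with sums of 29.5 to 51.7 and 15.9 to 31.4 CPM. Itgam made up much of that sum, at means of 20.3 and 14.8 CPM, and Mrc1, the marker higher in CD24Neg, was at 0.766 and 1.54 CPM (adjusted p = 0.0282). Mrc1 rested on 71 reads in CD24Mid and 63 in CD24Neg. Its call was lost in several alternatives, among them upper-quartile scaling, library totals and the deposited estimates. Endothelial markers summed to 3.64 to 5.39 CPM in CD24Mid and 1.89 to 4.64 CPM in CD24Neg, with Emcn at 0, but without Esam, 6.27-fold higher in CD24Mid, the sums were 0.920 to 2.05 and 1.39 to 3.97 CPM. The 5 remaining markers with reads, Pecam1, Cdh5, Kdr, Tek and Tie1, each had the higher mean in CD24Neg, and Pecam1, the one of them tested, was not called. The adipocyte markers Adipoq, Lep, Cfd and Retn were at 0 in all 8 libraries. Of the other lists, B and plasma cell markers, 4 of 5 tested higher in CD24Mid, summed to 396 to 1014 and 23.7 to 54.6 CPM, and enteroendocrine markers, 4 of 6, to 253 to 557 and 75.6 to 111 CPM. Paneth, tuft and stromal sums overlapped between groups, with stromal sums of at most 1.14 CPM. The part of these cells in the members' values was not tested.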

How the data were processed

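RNA of sorted mouse small intestinal epithelial cells was turned into TruSeq libraries, per the labels' protocols. Reads were aligned with Bowtie 0.12.8 to NCBIM37, per the submitters' processing notes. The table format is that of MMSEQ. Version, annotation release, strand setting and filters were not given in the sources used here, and overlapping antisense genes cannot be told apart. The deposited count is of fragments unique to 1 gene, without normalisation. The authors also deposited an expression estimate that includes shared reads, read here as a natural log of fragments per kilobase, relative to the library's mapped fragments (slope against unique counts 0.965 to 0.981), and an effective length in bases. Estimated reads were 0.977 to 1.02 times the unique reads of each member in each library.

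Names were found for 32897 of 37620 gene IDs (87.4%), with all 10 members, 56 pathway places and 83 marker places matched. Promoters are RefSeq's, of a later build than the files, and no measured value was read by position. The members, gene lists and tests were chosen with earlier results of these data known. Groups came from the labels. R 4.3.3 with edgeR 4.0.16 was used to test the counts, by a quasi-likelihood F test (robust) on TMM-scaled libraries with the group alone, after filterByExpr, adjusted by Benjamini-Hochberg over the 12840 genes left (threshold 0.05). The code was checked on simulated data. A standard error is the log2 fold change over the root of F. Member ratios used (reads + 0.5) per kilobase and exact two-sided permutation tests in SciPy 1.17.1. Besides the members, the rule named, per pathway list, up to 3 tested genes of highest level per kilobase and up to 3 called genes of largest change toward CD24Mid, and 3 nearest genes for each of 5 members (log2 CPM, prior count 3, predicted genes left out), of which 1 is not reported here. Alternatives were upper-quartile scaling, library totals, mitochondrially encoded genes left out, DESeq2 1.42.0, no filter, estimated counts rounded to whole reads, limma 3.58.1 on the deposited estimates, each library left out and, added after the data were seen, a block of consecutive title numbers. Within a group, chi-square per degree of freedom between libraries was 10.8 or more, and each was counted as 1 sample.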

Additional observations from a re-analysis of the deposited data

Results flagged for a closer look

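A library far from the other 3 of its group was looked for in 66 groups of 4 libraries, as a gap to the nearest library over the whole range above Dixon's 95% critical value, which chance passes in about 1 in 20 groups. There were 7 such cases, and 4 of them were CD24Mid replicate 1. Among the members, Dgat1 in CD24Mid replicate 1 stood at 305 CPM against 178 to 191 CPM in the other 3 (0.893), and Plin3 in CD24Neg replicate 6 at 448 CPM against 342 to 358 CPM (0.853). CD24Mid replicate 1 was also high for Agpat2, at 95.8 against 56.1 to 62.6 CPM (0.835), for Cideb, at 40.5 against 19.4 to 22.2 CPM (0.87), and for Lipe, at 22.2 against 13.02 to 13.4 CPM (0.96). Pnpla2 was low in CD24Neg replicate 8, at 169 against 198 CPM in each of the others (0.981), and Hnf4a was low in CD24Mid replicate 7, at 882 against 927 to 932 CPM (0.903).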

How the results depend on the processing

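On library totals alone and with limma on the deposited estimates, 8959 and 8545 genes were called higher in CD24Mid and 1659 and 1634 higher in CD24Neg, against 4557 and 4410 with TMM. Of the pathway genes, 17 and 17 were then higher in CD24Mid and 13 and 15 higher in CD24Neg, against 10 and 26. Log2 fold changes that changed sign, on library totals and on the deposited estimates, were those of Plin2 (0.0757 and 0.0915), Scarb1 (0.223 and 0.324), Acsl1 (0.194 and 0.213), Pnpla2 (0.0191 and 0.0619), Ppara (0.730 and 0.534, and 0.0154 with upper-quartile scaling), Ppard (0.430 and 0.474) and Pparg (0.187 and 0.223). The cause was not tested. Members called higher in CD24Neg were 9 in those 2 of the 16 alternatives, without Plin2, and 10 in the other 14. Leaving out each library in turn gave log2 fold changes from -5.26 to -4.48 for Cd36 and from -1.02 to -0.75 for Plin2. The 6 ratios of members, which scaling between libraries cannot change, kept the sign of their difference in each alternative run for them. With 3 libraries against 4, however, the permutation test of the ratios cannot go below 0.0571. No number in the titles is shared between groups and no label pairs the libraries, but libraries with consecutive title numbers (1 and 2, 3 and 4, 5 and 6, 7 and 8) deviated from their group means together, with correlations over genes of 0.359 to 0.428 against -0.361 to 0.0776 for other pairs of a CD24Mid and a CD24Neg library. A replicate block on these numbers, chosen after seeing the data, called the same 10 members, 4908 genes higher in CD24Mid and 4776 higher in CD24Neg, and 11 and 26 pathway genes, with log2 fold changes of -4.92 for Cd36 and -0.88 for Plin2. For the members and the pathway genes named above it changed no call. Among the markers it added calls. Macrophage markers called higher in CD24Mid went from 3 to 5, which brought in Itgam, and 1 marker of the upper small intestine was then called higher in CD24Neg. Cd36 in CD24Mid rested on the fewest reads of any member, 241 in all.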

Other observations

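The 14 pathway genes that were too low to test included all of the perilipins other than Plin2 and Plin3, that is Plin1, Plin4 and Plin5, and the monoacylglycerol acyltransferase Mogat1. Plin1 had no read in any library, Plin4 and Plin5 had mean levels of 0.133 and 0.205 CPM in CD24Mid and 0.0760 and 0.151 CPM in CD24Neg, and Mogat1 of 0.0354 and 0.0498 CPM. The members of these families that gave reads above the filter were therefore Mogat2, Plin2 and Plin3. Slc27a5 and Slc27a6, transport proteins best known from liver and heart, had 0.299 and 0.272 CPM in CD24Mid and 0.445 and 0.199 CPM in CD24Neg.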
